A study of Mus musculus with 514 samples.

Results

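Mouse 8-cell embryos without the nuclear receptors Nr5a2 and Esrrb were compared with embryos heterozygous for deletions of both genes. The members are the 10 full-length RNA-seq libraries labelled mz_DKO and the 21 labelled mz_DHet at the 8-cell stage (8C), among 51 full-length libraries at 8C and 514 samples in the series. Each library holds polyadenylated RNA of 1 embryo. The series follows oocytes and embryos with deletions of these receptors up to 8C, and its title states that Nr5a2 is dispensable for zygotic genome activation (ZGA) and essential for morula development. In knockout labels the prefix mz marks loss of both the maternal and the zygotic product. DKO stands for loss of Nr5a2 and Esrrb, NrKO for loss of Nr5a2 alone and EKO for loss of Esrrb alone. The mz_DHet controls carry the prefix too and are heterozygous. Of the mz_DKO embryos, 9 were dated 8 March 2022 and 1 was dated 23 February 2022. The same fit held 10 mz_NrKO embryos (6 of 8 March, 1 of 23 February and 3 of 15 July 2022) and 10 mz_EKO embryos (9 of 8 March and 1 of 23 February). The mz_DHet embryos were dated 8 March (15), 23 February (2) and 15 July (4). The labels give neither strain, age nor mother, and the driver of the maternal deletion is not given in the sources used here. Embryos may share a mother, so p-values describe variation among embryos alone.

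Expression is given as TPM, a transcript's share of all transcripts corrected for length, so the read depth is unknown and no counting interval can be given. A group over 5 libraries is described by its lowest, median and highest TPM. Differences are log2 fold changes of TPM + 1, mz_DKO minus mz_DHet, with standard error (SE), from limma with group and date as factors. That scale understates changes of genes near 1 TPM. A gene was tested if 10 or more libraries had 5 TPM or more, and it was called at a Benjamini-Hochberg adjusted p under 0.05 (two-sided). Of 10876 genes tested, 3669 (33.7%) were called. In RNA of whole embryos, fewer cells of a type and less RNA per cell cannot be told apart.

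Nr5a2 and Esrrb are orphan nuclear receptors. Each binds as a monomer to an extended half-site, TCAAGGNCA, and both are known in mouse embryonic stem cells as activators of the pluripotency network. The 8-cell stage is when blastomeres compact, acquire an apical domain and begin to separate trophectoderm, the future placenta, from inner cell mass. Hippo signalling connects the apical domain to that choice, since it holds the coactivators Yap1 and Wwtr1 away from Tead4, which activates Cdx2 and Gata3.

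The targeted genes were measured per gene and not per exon, so their values cannot show whether the deleted exons were absent. Nr5a2 transcripts stood at 509, 789.8 and 1050 TPM in mz_DKO and 184, 485 and 695 TPM in mz_DHet embryos, higher in mz_DKO (0.64 ± 0.17, adjusted p = 0.0025). Esrrb transcripts stood at 4.98, 26.6 and 42.6 TPM in mz_DKO and 13.4, 48.7 and 76.5 TPM in mz_DHet embryos (-0.96 ± 0.24, adjusted p = 0.00113). In reads with a unique molecular identifier (UMI), which mark 5' ends of transcripts of the same embryos, Esrrb was at 1.83, 2.89 and 4.78 TPM in 9 mz_DKO and 7.58, 43.8 and 63.96 TPM in 16 mz_DHet libraries (-3.23, adjusted p = 1.22e-13). All 10 mz_DKO libraries were above the control median for Nr5a2 and below it for Esrrb, with overlap for both. Within 10 Mb of Nr5a2, 33.3% of 57 tested genes were called (9 higher, 10 lower), against 33.7% of all genes tested. Within 10 Mb of Esrrb 43.0% of 100 were called, 34 higher and 9 lower, with a median log2 fold change of 0.34 against 0.05 over all genes.

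Libraries were compared before genes. The number of genes above 1 TPM was 12536 to 14039 (median 13113) in mz_DKO and 10863 to 13969 (median 12556) in mz_DHet libraries (permutation test, p = 0.00175, and exact p = 0.00271 on 8 March alone). Of 8 marker genes of the 8-cell embryo all were detected, and their summed TPM was 1834 to 2517 in mz_DKO and 3344 to 8144 in mz_DHet embryos. It did not overlap between the groups (permutation p = 1e-05, the smallest these resamples can give), and 7 of the 8 were called, all but Cdh1. Of these 7, Fgf4 was higher in mz_DKO (log2 fold change 1.30) and the others were lower. Abundant genes such as Dppa5a weigh most in the sum. Blood markers summed to 37.1 to 205 TPM (median 77.7) in mz_DKO and 1.30 to 35.4 TPM (median 11.6) in mz_DHet libraries (permutation p = 1e-05). For both sums the exact p on 8 March alone was 7.65e-07, the smallest that design allows. The blood sum was 30.2 to 188.5 TPM in 9 mz_NrKO libraries and 2.96 TPM in mz_NrKO replicate 1. In mz_EKO libraries it was 2.165 to 24.3 TPM. Of 10 blood markers 2 were tested, and Cd74, the invariant chain of class II antigen presentation, was called higher, with 3.94, 65.9 and 189 TPM in mz_DKO and 0, 3.00 and 25.3 TPM in mz_DHet. The haemoglobin gene Hba-a2 missed the filter, with 1.03, 5.55 and 19.4 TPM in mz_DKO and 0, 0 and 5.28 TPM in mz_DHet. It was called higher in UMI reads (2.59, adjusted p = 5.59e-05), and the authors' deposited table gives 2.63 (FDR 0.0133) for it and 1.35 (FDR 0.614) for its near-identical copy Hba-a1. The haemoglobin genes Hbb-bs and Hbb-bt were at 0 in every library of both groups. In mz_DKO replicate 1, Cd74 made up 3.94 of a sum of 42.5 TPM. The part of the blood markers in the other results was not tested. Summed markers of cumulus and granulosa cells (permutation p = 0.838), sperm (0.776), oviduct epithelium (0.692) and the Y chromosome (0.139) did not pass, and 0 of their 1, 0, 2 and 3 tested genes were called in limma. On the first 2 principal components the 9 mz_DKO libraries of 8 March lay apart from the mz_DHet libraries of that date. Dates separated the controls as well, and mz_DHet replicate 13 lay farthest from the other controls of 8 March. Of the mz_NrKO libraries, replicate 1 lay near the controls of other dates and replicate 7, of 8 March, near the mz_NrKO libraries of 15 July. The library labelled mz_NrKO replicate 1 had 243 TPM of Cdx2, 1158 TPM of Crip2 and 89.2 TPM of Steap3, while the other 9 mz_NrKO libraries had at most 6.79, 79.01 and 4.80 TPM. For these genes it goes against its label, which values per gene cannot check, so counts that rest on mz_NrKO are also given without it.

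**Figure D1:**
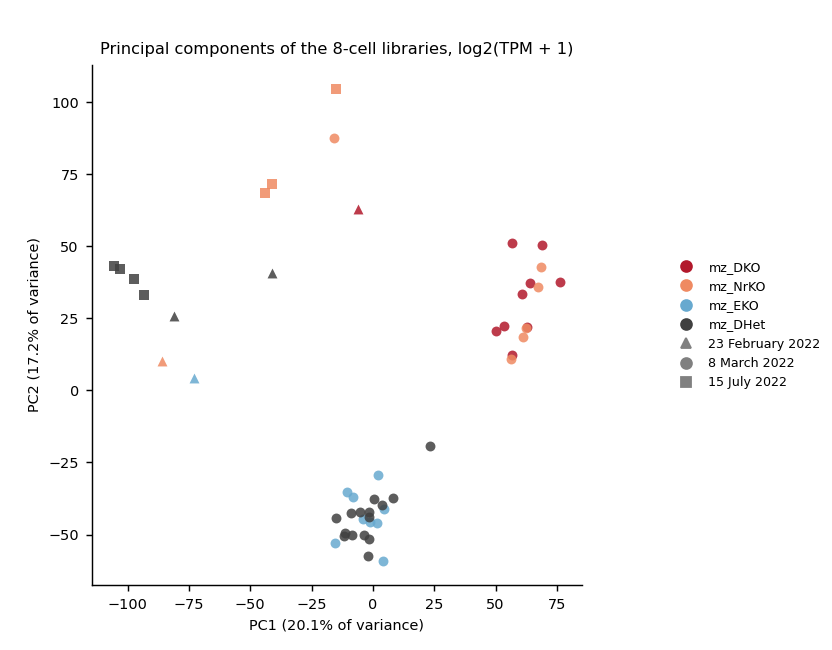
Each point is 1 of 51 full-length 8-cell libraries on the first principal component (20.1% of variance, horizontal) and the second (17.2%, vertical) of log2(TPM + 1), with colour for group and symbol for date. The mz_DKO libraries of 8 March lie at the right with most mz_NrKO libraries of that date, while mz_EKO and mz_DHet libraries of 8 March overlap at the bottom.

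A large share of the transcriptome differed in mz_DKO embryos. The trophectoderm factors Cdx2, Tead4 and Gata3 fell, while the ERK feedback gene Dusp6, the retinoic acid enzyme Cyp26a1 and single genes of the 2-cell stage such as Ddit4l rose. Of the 3669 called genes 2059 were higher (18.9% of those tested) and 1610 lower (14.8%), with 4614 genes at an unadjusted p under 0.05. At least 2-fold differences numbered 1174 upward and 823 downward, and at least 8-fold 97 and 45. The median of all tested genes was 0.05 on the log2 scale, and 0.04 with median-of-ratios scaling. On 8 March alone, where 9 mz_DKO faced 15 mz_DHet embryos, 3922 genes were called (2102 higher, 1820 lower). Of these, 3336 were also called over all dates, all with the same sign. The TPM ranges of the groups did not overlap for 0.938% of genes over all dates and for 447 on 8 March (4.11%). Every count of members below is to be read against these shares. A gene near 0 in one group can pass the filter through the other group alone, so counts and medians over the members of a list that passed are descriptions.

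The extended half-site was looked for in RefSeq promoters (build GRCm38.p6, 250 bases before to 50 after the start of a transcript). The motif of 9 letters was searched on both strands, as TCAAGGNCA and its complement TGNCCTTGA. It stood in 532 of 32851 promoters, or 1.62%. Among genes tested at 8C with a promoter it stood in 17 of 1232 genes lower in mz_DKO (1.38%), 16 of 1483 genes higher (1.08%) and 71 of 5035 genes not called (1.41%). Among genes with at least 8-fold differences it stood in 2 of 33 lower (6.06%) and 7 of 61 higher (11.5%). None of the 10 genes with a promoter among the 12 largest falls held it, nor did the 9 among the 12 largest rises. A match is a description of the letters and not of binding. Of the promoters with a match, 3 are shown to give the sequence behind genes described further on, and they were chosen after their values were seen. The capitals mark the match.
Khdc3, chr9:73102148-73102447, + strand: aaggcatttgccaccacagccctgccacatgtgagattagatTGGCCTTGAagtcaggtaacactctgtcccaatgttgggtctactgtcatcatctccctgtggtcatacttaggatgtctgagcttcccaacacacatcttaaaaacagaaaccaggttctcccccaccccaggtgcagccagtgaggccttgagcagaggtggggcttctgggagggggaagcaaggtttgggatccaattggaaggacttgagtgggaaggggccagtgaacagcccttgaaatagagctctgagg
Pramel5, chr4:144280417-144280716, - strand: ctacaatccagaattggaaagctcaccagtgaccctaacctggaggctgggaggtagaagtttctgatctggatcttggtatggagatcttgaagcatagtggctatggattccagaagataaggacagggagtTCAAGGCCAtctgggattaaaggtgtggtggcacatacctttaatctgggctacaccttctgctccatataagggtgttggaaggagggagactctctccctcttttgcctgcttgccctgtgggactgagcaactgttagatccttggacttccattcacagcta
Klf17, chr4:117765617-117765916, - strand: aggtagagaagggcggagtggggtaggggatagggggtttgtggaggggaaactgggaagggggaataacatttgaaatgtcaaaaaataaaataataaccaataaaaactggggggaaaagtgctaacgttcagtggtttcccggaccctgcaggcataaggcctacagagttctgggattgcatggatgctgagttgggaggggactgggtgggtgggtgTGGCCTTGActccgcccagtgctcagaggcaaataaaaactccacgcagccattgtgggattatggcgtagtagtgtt
In Khdc3 the match lay 208 bases upstream of the start on the opposite strand, in Pramel5 it lay 116 bases upstream on the strand of the gene, and in Klf17 it lay 28 bases upstream on the opposite strand. Khdc3, a component of the maternal complex beneath the egg surface, stood at 6.87, 90.4 and 322 TPM in mz_DKO and 189, 915 and 1378 TPM in mz_DHet embryos. It fell by 3.78 on the log2 scale (SE 0.49, limma adjusted p = 2.41e-08). Pramel5, of the Prame-like family, stood at 22.3, 82.2 and 98.4 TPM in mz_DKO and 40.3, 786 and 1361 TPM in mz_DHet embryos, and its log2 fold change was -3.17 ± 0.35 (adjusted p = 6.21e-10). Klf17, a Kruppel-like transcription factor, moved the other way, with 21.5, 70.4 and 116.5 TPM in mz_DKO and 1.61, 11.6 and 33.3 TPM in mz_DHet embryos (1.90 ± 0.35, adjusted p = 1.69e-05). For Khdc3, 8 of 10 mz_DKO embryos lay below every control, for Pramel5 all 10 lay below the control median, and for Klf17 all 10 lay above it.

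At a pseudocount of 1 TPM the largest fitted fall was that of Cdx2 (ENSMUSG00000029646.3, mm10 chromosome 5, 147300805 to 147307270), the homeobox factor that specifies trophectoderm. It stood at 0, 0.214 and 5.48 TPM in mz_DKO and 0.620, 87.3 and 294 TPM in mz_DHet embryos. In 6 of 10 mz_DKO embryos it was below every control (-5.26 ± 0.63, adjusted p = 3.42e-09, and -5.75 on 8 March alone). Crip2 (ENSMUSG00000006356.10, mm10 chromosome 12, 113140236 to 113145506), a LIM-domain protein, had 5.14, 11.3 and 29.4 TPM in mz_DKO and 131.1, 534 and 909 TPM in mz_DHet embryos. The groups did not overlap (-5.25 ± 0.42, adjusted p = 1.07e-13, and -5.57 on 8 March). Ass1 (ENSMUSG00000076441.9, mm10 chromosome 2, 31470207 to 31520672), argininosuccinate synthase of arginine synthesis, was at 0, 3.56 and 30.7 TPM in mz_DKO and 18.6, 129.5 and 361 TPM in mz_DHet embryos, and 9 of 10 mz_DKO values lay below all controls (-4.84 ± 0.57, adjusted p = 2.55e-09). Tnfsf13b (ENSMUSG00000031497.9, mm10 chromosome 8, 10006467 to 10039072), the cytokine BAFF, was listed at 0 in all 10 mz_DKO libraries and stood at 0, 26.5 and 79.4 TPM in mz_DHet, so no fold is given (adjusted p = 3.97e-13). Cdx2 and Crip2 differed by less than their SE, and the order of the largest falls depended on the pseudocount.

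Other large falls lay in metabolism, transport and secretion. Slc25a41 (ENSMUSG00000011486.14, mm10 chromosome 17, 57032773 to 57041654), a mitochondrial carrier of ATP-Mg and phosphate, stood at 0, 0.418 and 9.66 TPM in mz_DKO and 5.99, 38.97 and 54.1 TPM in mz_DHet embryos (-4.38 ± 0.31, adjusted p = 2.97e-15), and 9 of 10 mz_DKO libraries were below all controls. Tinagl1, a secreted matrix glycoprotein, was at 0, 0 and 3.03 TPM in mz_DKO and 4.06, 29.99 and 81.1 TPM in mz_DHet (-4.31 ± 0.45, adjusted p = 1.4e-10). Stard10, a lipid transfer protein, was at 0, 3.95 and 20.6 TPM in mz_DKO and 38.4, 92.99 and 360.1 TPM in mz_DHet (-3.91 ± 0.37, adjusted p = 7.02e-12). Neither of these overlapped between the groups. Ptges, which makes prostaglandin E2, had a median of 2.49 TPM in mz_DKO and 78.4 TPM in mz_DHet (-4.34). The activin antagonist Fstl3 had a median of 5.75 TPM in mz_DKO and 99.8 TPM in mz_DHet (-3.96), and the endosomal ferrireductase Steap3 had 3.68 TPM in mz_DKO and 61.2 TPM in mz_DHet (-3.87). The remaining falls of the 12 were S1pr2, a receptor for sphingosine-1-phosphate (median 0.0489 TPM in mz_DKO and 16.4 TPM in mz_DHet, -3.85), and Rpph1, the RNA component of RNase P (median 0 TPM in mz_DKO and 41.5 TPM in mz_DHet, -3.94). Rpph1 RNA is not polyadenylated as a rule, so its level in this library type is uncertain. All 12 had an adjusted p of at most 5.29e-07, and on 8 March alone the ranges of all 12 were apart. All 12 were also called lower in UMI reads of the same embryos, by 2.05 to 5.50 on the log2 scale.

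**Figure D2:**
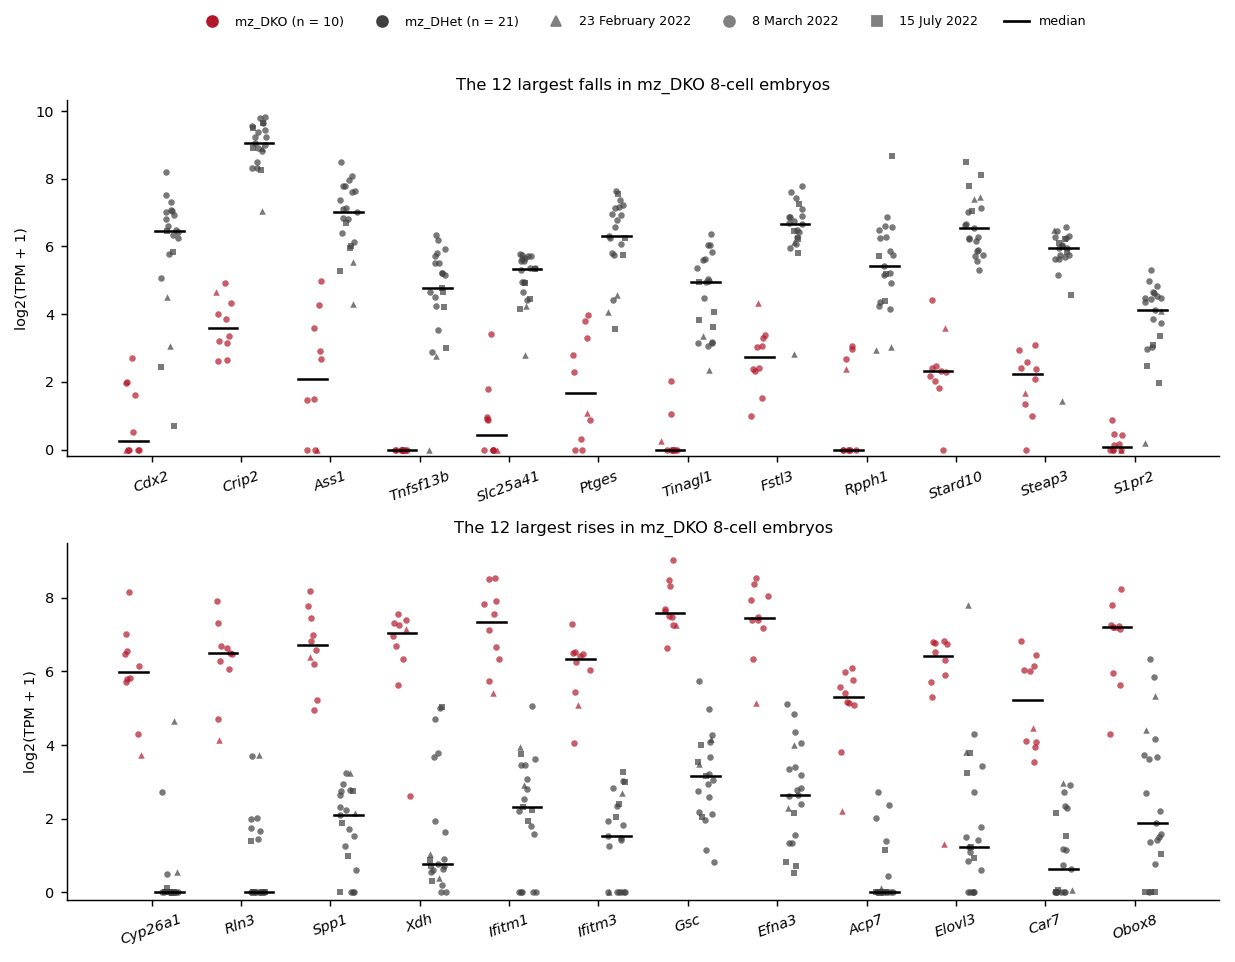
Each point is the log2(TPM + 1) of 1 library for the 12 largest falls (top) and the 12 largest rises (bottom), mz_DKO (n = 10) left of mz_DHet (n = 21), with symbols for date and bars at medians. Tnfsf13b is at 0 in all mz_DKO libraries, and low control values of several falls come from libraries of 23 February and 15 July.

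Most tested genes of the trophectoderm list were lower. Of 24 listed genes 17 were tested, 14 fell and 1 rose, and the median log2 fold change was -1.76, against 0.05 over all genes tested. Genes near 0 in mz_DKO, Cdx2 among them, passed the filter through other groups. The count and median are therefore descriptions and give no direction for the list. Klf5, a Kruppel-like factor needed for the first lineages, stood at 85.4, 117.6 and 180.5 TPM in mz_DKO and 139.2, 455 and 574 TPM in mz_DHet (-1.90 ± 0.17, adjusted p = 2.3e-12). Tead4, the DNA-binding partner of Yap1, stood at 5.82, 30.7 and 62.00 TPM in mz_DKO and 24.2, 123.7 and 237 TPM in mz_DHet (-2.02 ± 0.24, adjusted p = 4.79e-09). The tight junction claudin Cldn4 stood at 10.2, 106.9 and 318 TPM in mz_DKO and 253, 616 and 936 TPM in mz_DHet (-2.53 ± 0.35, adjusted p = 8.69e-08). For these 3 genes all mz_DKO libraries lay below the control median. Further falls included the endocytic adaptor Dab2 (-3.34), the keratins Krt7 (-2.44) and Krt18 (-1.76), and the transcription factors Gata3 (-2.42), Eomes (-2.30), Elf3 (-1.35), Tfap2c (-1.13) and Hand1 (-1.11). The rise was that of another keratin, Krt19 (2.05, adjusted p = 0.000649). Hand1 was not called without mz_DKO replicate 9 (adjusted p = 0.0888), and it lost its call in 4 of the runs with 1 library left out.

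In the Hippo list 7 of 20 tested genes fell and 4 rose (median -0.04). Wwtr1, the coactivator also called TAZ, had 137.3, 238 and 315 TPM in mz_DKO and 19.7, 35.2 and 84.9 TPM in mz_DHet embryos, a rise without overlap (2.58 ± 0.22, adjusted p = 3.21e-13). Other members of the pathway moved the other way. Vgll4, which competes with Yap1 for Tead proteins, had 1.82, 7.62 and 18.01 TPM in mz_DKO and 15.7, 46.01 and 84.9 TPM in mz_DHet (-2.48 ± 0.35, adjusted p = 1.19e-07). The kinase Lats2, which phosphorylates Yap1, had 0, 2.48 and 5.48 TPM in mz_DKO and 1.77, 12.2 and 24.7 TPM in mz_DHet (-2.08 ± 0.32, adjusted p = 8.99e-07). Tead2 (-2.31), the scaffold Amotl2 (-1.74) and the LIM protein Ajuba (-1.35) fell too, while the kinase Taok1 (1.45) and the Yap1 target Ccn2 (1.04) rose.

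Adhesion and polarity genes were called at 34.4%, with 8 of 32 lower and 3 higher (median -0.22). Members of the Par polarity complex differed in their calls. Pard6b, its scaffold, stood at 2.52, 7.69 and 15.4 TPM in mz_DKO and 3.49, 31.3 and 52.9 TPM in mz_DHet (-2.18 ± 0.29, adjusted p = 5.29e-08). The atypical kinase Prkcz stood at 8.22, 20.6 and 55.6 TPM in mz_DKO and 19.3, 81.7 and 134.6 TPM in mz_DHet (-1.71 ± 0.29, adjusted p = 5.61e-06). All mz_DKO libraries were below the control median for both, with partial overlap. The scaffold Pard3 (-0.26 ± 0.35, adjusted p = 0.615) and the kinase Prkci (0.46 ± 0.30, adjusted p = 0.253) were not called. The tight junction protein Cgn (-1.45 ± 0.20, adjusted p = 1.11e-07), the small GTPase Cdc42 (-0.73 ± 0.12, adjusted p = 5.23e-06) and the Crumbs protein Crb3 (-1.15) also fell, and the microvillar protein Ezr rose (1.17). Cdh1, the cadherin of compaction, stood at 26.6, 76.2 and 121.8 TPM in mz_DKO and 14.8, 100.1 and 140.96 TPM in mz_DHet and was not called (-0.62 ± 0.27, adjusted p = 0.0672).

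Pluripotency genes moved both ways. Of 25 tested, 8 fell and 7 rose (median -0.17). Dppa5a, an RNA-binding protein of pluripotent cells, had 299, 503 and 1712 TPM in mz_DKO and 1019, 1330 and 5930 TPM in mz_DHet embryos (-1.33 ± 0.15, adjusted p = 1.46e-09). Its highest mz_DKO value, in replicate 1 of 23 February, was the single one above the control median. Klf4 had 4.05, 15.3 and 37.4 TPM in mz_DKO and 8.98, 50.1 and 82.4 TPM in mz_DHet (-1.77 ± 0.28, adjusted p = 1.2e-06), and Tfcp2l1 had 18.8, 25.00 and 69.2 TPM in mz_DKO and 45.7, 84.3 and 151 TPM in mz_DHet (-1.46 ± 0.23, adjusted p = 1.65e-06). Both are transcription factors of naive embryonic stem cells. Tdgf1, a Nodal co-receptor (-2.40), Nanog (-1.19), the demethylase Tet2 (-0.99), Pou5f1 (-0.43) and Dppa2 (-0.38) made up the other falls. The germline and pluripotency regulator Prdm14 had 2.87, 9.12 and 34.4 TPM in mz_DKO and 0, 0.605 and 4.90 TPM in mz_DHet, a rise (2.67 ± 0.40, adjusted p = 4.88e-07). Klf17 (1.90), Tet1 (1.44), Klf2 (1.42), Fgf4 (1.30), Spic (0.96) and Dppa4 (0.45) rose with it. Some of these calls were lost with a single library left out. Nanog was not called without mz_DKO replicate 7 (adjusted p = 0.102), nor Fgf4 without replicate 3 (0.087). Spic was not called without replicate 8 (0.0618), nor Dppa2 without replicate 9 (0.0554). Fgf4 lost its call in 10 of the runs with 1 library left out, so no particular embryo decided it. In UMI reads Tet2 had 0.05 (adjusted p = 0.904).

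Of 9 primitive endoderm genes tested, 4 rose and 1 fell (median 0.33). Gata4, a master factor of that lineage, stood at 52.5, 83.9 and 142.5 TPM in mz_DKO and 0.182, 16.9 and 62.6 TPM in mz_DHet embryos (2.21 ± 0.43, adjusted p = 5.94e-05). Its receptor marker Pdgfra stood at 6.59, 32.4 and 63.2 TPM in mz_DKO and 0, 4.50 and 27.9 TPM in mz_DHet (2.59 ± 0.43, adjusted p = 4.03e-06). The apolipoprotein Apoe stood at 67.7, 134.7 and 301 TPM in mz_DKO and 12.3, 28.4 and 212 TPM in mz_DHet (2.20 ± 0.35, adjusted p = 1.69e-06). Sox17, another endoderm factor, rose by 2.83 on the log2 scale, and the basement membrane collagen Col4a1 was low in both groups and fell (-2.004 ± 0.36, adjusted p = 1.67e-05). All 10 mz_DKO libraries were above the control median for Gata4, Pdgfra and Apoe.

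Signalling ligands, receptors and feedback genes gave 6 rises and 5 falls among 21 tested (median 0.34). Dusp6, a phosphatase that ERK signalling induces against itself, had 61.5, 135.5 and 251 TPM in mz_DKO and 1.11, 6.18 and 23.8 TPM in mz_DHet embryos, without overlap (3.92 ± 0.44, adjusted p = 6.5e-10). Axin2, a feedback gene of Wnt signalling, had 14.1, 27.1 and 67.9 TPM in mz_DKO and 0, 1.26 and 19.3 TPM in mz_DHet (3.42 ± 0.41, adjusted p = 4.79e-09). The FGF feedback genes Spry2 (1.64) and Spry1 (1.29) and the ligand Fgf4 (1.30) rose as well, as did the Wnt receptor Fzd5 (1.03). Igf2r, which clears the growth factor IGF2, had 6.36, 11.7 and 15.4 TPM in mz_DKO and 3.46, 91.3 and 114.3 TPM in mz_DHet (-2.58 ± 0.20, adjusted p = 3.36e-14). The ligand Wnt7b (-2.68 ± 0.44, adjusted p = 2.99e-06), the receptors Fgfr3 (-1.12) and Acvr2b (-1.12) and the FGF-responsive factor Etv5 (-0.74) fell. Acvr2b was not called without mz_DKO replicate 8 (adjusted p = 0.124), nor Fgfr3 without replicate 3 (0.057), nor Etv5 in UMI reads (adjusted p = 0.151). Acvr2b lost its call in 6 of the runs with 1 library left out.

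**Figure D3:**
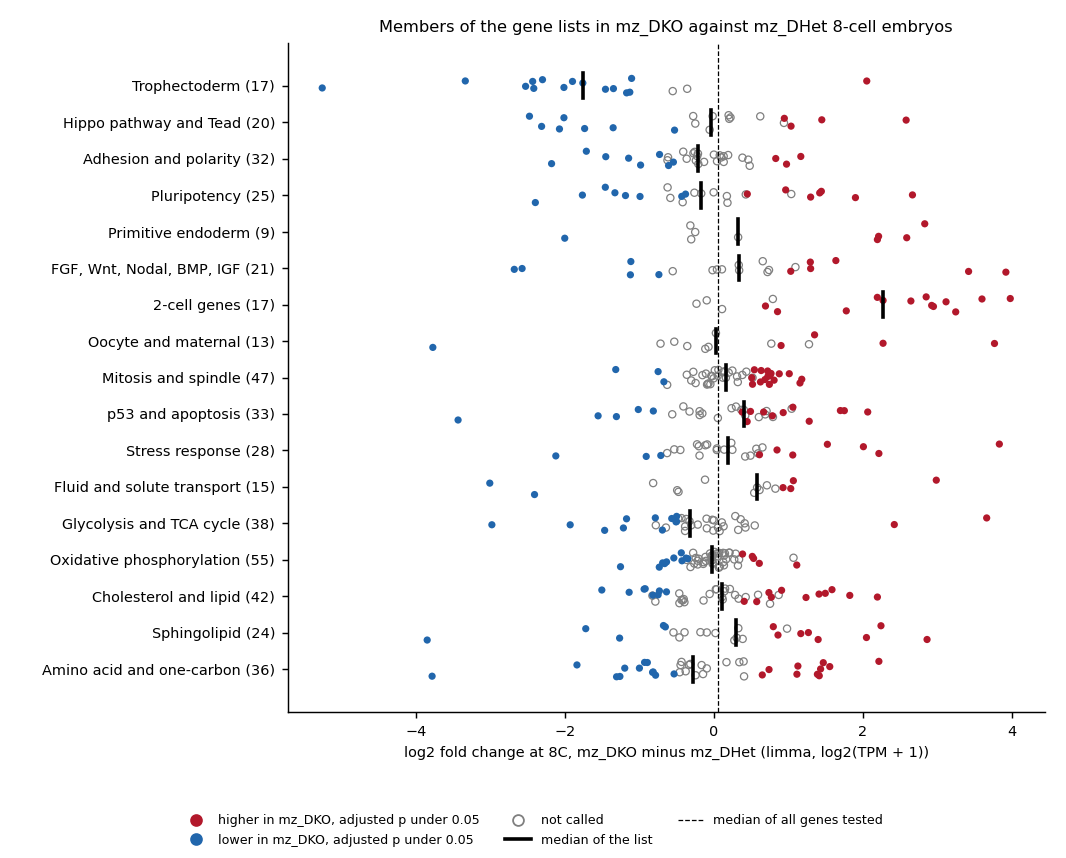
Each point is the log2 fold change (mz_DKO minus mz_DHet, horizontal) of 1 tested member of a gene list, red where higher and blue where lower at an adjusted p under 0.05, grey where not called, with the number tested in brackets. Thick bars mark medians and the dashed line marks the median of all tested genes, 0.05. Tested trophectoderm members lie mostly to the left (median -1.76) and tested 2-cell members to the right (median 2.27). Members near 0 in 1 group can pass the filter through others, so these medians give no direction for the lists.

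The largest fitted rise at that pseudocount was that of Cyp26a1 (ENSMUSG00000024987.6, mm10 chromosome 19, 37697798 to 37701536), the enzyme that breaks down retinoic acid. It stood at 12.1, 62.7 and 283 TPM in mz_DKO embryos, and most of the mz_DHet libraries were at 0, with 0, 0 and 23.99 TPM as lowest, median and highest. The log2 fold change was 5.57 ± 0.51 (adjusted p = 3.83e-12, and 6.005 on 8 March alone), and 8 of 10 mz_DKO libraries were above every control. Rln3 (ENSMUSG00000045232.4, mm10 chromosome 8, 84042929 to 84045000), a relaxin-family peptide, stood at 16.5, 88.97 and 241 TPM in mz_DKO and 0, 0 and 12.3 TPM in mz_DHet (5.30 ± 0.50, adjusted p = 8.62e-12). Spp1 (ENSMUSG00000029304.14, mm10 chromosome 5, 104435118 to 104441050), the secreted glycoprotein osteopontin, stood at 29.9, 103.99 and 290.4 TPM in mz_DKO and 0, 3.27 and 8.45 TPM in mz_DHet (5.12 ± 0.53, adjusted p = 1.08e-10). The lowest mz_DKO value was above the highest control value for both.

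The homeobox gene Gsc, goosecoid, known from the gastrula organizer, had 97.9, 191 and 521 TPM in mz_DKO and 0.780, 7.93 and 52.1 TPM in mz_DHet embryos (4.52 ± 0.45, adjusted p = 2.99e-11). The ephrin ligand Efna3 had 34.2, 173 and 369.8 TPM in mz_DKO and 0.427, 5.19 and 33.6 TPM in mz_DHet (4.41 ± 0.43, adjusted p = 2.18e-11). Carbonic anhydrase Car7 had 10.5, 42.2 and 111.7 TPM in mz_DKO and 0, 0.560 and 6.84 TPM in mz_DHet (4.07 ± 0.45, adjusted p = 6.08e-10). None of the 3 overlapped between the groups. Ifitm1 (median 164 TPM in mz_DKO and 3.94 TPM in mz_DHet, log2 fold change 4.95) and Ifitm3 (median 80.1 TPM in mz_DKO and 1.88 TPM in mz_DHet, log2 fold change 4.79) are interferon-induced membrane proteins of a family with similar copies, so the split of reads between them is uncertain. Neither overlapped. Xdh, which makes uric acid (4.96), the acid phosphatase Acp7 (4.38), the fatty acid elongase Elovl3 (4.20) and the oocyte homeobox gene Obox8 (4.04) completed the 12. The highest mz_DHet values were 32.01 TPM for Xdh, 5.63 for Acp7, 222 for Elovl3 and 79.7 for Obox8, and the ranges overlapped those of mz_DKO. The 12 rises had adjusted p values of at most 2.38e-06, on 8 March the ranges of 10 of them were apart, and all 12 were called higher in UMI reads (2.80 to 6.07 on the log2 scale).

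Genes of the 2-cell stage are known as a burst of transcripts that embryos largely clear afterwards. Of 38 listed genes 34 were found in the data and 17 passed the filter, some of them on low values. Of these 17, 13 were called higher and 0 lower in limma, with a median of 2.27. The 21 others were not tested, and genes near 0 in controls, Usp17ld among them, passed through the mutants, so this count gives no direction for the list. Sp110, a nuclear body protein abundant in both groups, stood at 719.6, 1801 and 2404 TPM in mz_DKO and 153, 549.8 and 903 TPM in mz_DHet (1.78 ± 0.30, adjusted p = 4.08e-06). Ddit4l, an inhibitor of mTORC1, stood at 37.05, 77.04 and 135.3 TPM in mz_DKO and 3.07, 14.9 and 62.6 TPM in mz_DHet (2.19 ± 0.31, adjusted p = 1.92e-07). The deubiquitinase gene Usp17ld stood at 1.97, 9.69 and 71.5 TPM in mz_DKO and 0, 0 and 1.67 TPM in mz_DHet (3.25 ± 0.46, adjusted p = 1.92e-07). Tdpoz5, of a family with BTB domains, stood at 7.73, 32.3 and 241 TPM in mz_DKO and 0, 2.05 and 27.03 TPM in mz_DHet (3.60 ± 0.54, adjusted p = 5.77e-07). In all 4 every mz_DKO library was above the control median, and Usp17ld did not overlap. Tdpoz4 (3.98), Tcstv3 (3.12), Tcstv1 (2.95) and arginase Arg2 (2.92) were among the other rises. Usp17l, Tdpoz and Tcstv genes have near-identical copies, so values of single members are uncertain.

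Among oocyte and maternal genes 13 of 46 passed the filter, and of these 4 were called higher and 1 lower. Genes low in controls such as Ddx4 passed through the mutants, so this count gives no direction for the list either. The fall was that of Khdc3, given with its promoter. Ddx4, the germline RNA helicase, stood at 5.20, 49.1 and 128.7 TPM in mz_DKO and 0, 1.70 and 7.45 TPM in mz_DHet (3.77 ± 0.48, adjusted p = 1.63e-08). The zona pellucida glycoprotein gene Zp3 stood at 18.5, 86.5 and 143.1 TPM in mz_DKO and 2.23, 17.2 and 54.6 TPM in mz_DHet (2.27 ± 0.38, adjusted p = 4.56e-06). Dppa3, which guards DNA methylation in the egg and zygote, stood at 1967, 2502 and 2987 TPM in mz_DKO and 1046, 1369 and 3981 TPM in mz_DHet (0.90 ± 0.12, adjusted p = 4.49e-08). All 10 mz_DKO libraries lay above the control median for these 3.

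Glucose, pyruvate and tricarboxylic acid cycle enzymes were more often lower than higher, 11 against 2 of 38 tested (median -0.32). Mpc1, a subunit of the mitochondrial pyruvate carrier, had 11.3, 30.97 and 116.2 TPM in mz_DKO and 164, 222 and 765 TPM in mz_DHet embryos, without overlap (-2.98 ± 0.25, adjusted p = 4.68e-13). The isocitrate dehydrogenases Idh1 (-1.93 ± 0.28, adjusted p = 3.68e-07) and Idh2 (-1.22 ± 0.20, adjusted p = 2.83e-06), Idh3a (-1.47) and hexokinase Hk1 (-1.17) fell too. The rises were lactate dehydrogenase Ldha, with 24.5, 140.3 and 386 TPM in mz_DKO and 0, 8.40 and 137.9 TPM in mz_DHet (3.66 ± 0.59, adjusted p = 2.31e-06), and the phosphofructokinase Pfkp (2.42). Transcripts of the pyruvate carrier subunit and of the enzyme that turns pyruvate into lactate differed in opposite directions.

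Fluid transport genes matter for the blastocyst cavity, and 4 of 15 rose and 2 fell (median 0.58). Aqp3, a water and glycerol channel, had 25.2, 59.5 and 165 TPM in mz_DKO and 24.3, 475 and 947 TPM in mz_DHet (-3.01 ± 0.40, adjusted p = 3.09e-08). Other aquaporins rose. Aqp9 had 109.4, 159.6 and 209.8 TPM in mz_DKO and 27.2, 75.5 and 108.5 TPM in mz_DHet, without overlap (1.03 ± 0.17, adjusted p = 2.51e-06). Aqp11 had 49.8, 104.02 and 197 TPM in mz_DKO and 0.989, 12.02 and 73.2 TPM in mz_DHet (2.99 ± 0.49, adjusted p = 2.52e-06). The sodium pump subunit Atp1b3 rose (0.93 ± 0.17, adjusted p = 1.25e-05), and the glucose transporter Slc2a1 fell (-2.41, adjusted p = 2.96e-05).

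Oxidative phosphorylation subunits gave 10 falls and 5 rises of 55 (median -0.02), or 27.3%. Within complex I, Ndufa8 had 10.1, 23.99 and 32.8 TPM in mz_DKO and 41.2, 58.5 and 136.2 TPM in mz_DHet, without overlap (-1.25 ± 0.20, adjusted p = 2.54e-06), while Ndufv2 had 243, 296 and 523 TPM in mz_DKO and 100.1, 152 and 364 TPM in mz_DHet (1.11 ± 0.13, adjusted p = 2.84e-09). Members of one complex thus moved in opposite directions. Cox5a of complex IV (-0.73 ± 0.15, adjusted p = 0.000162) and Sdha of complex II (-0.66 ± 0.16, adjusted p = 0.000744) fell. Sdha was not called in UMI reads or without the date factor.

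Amino acid, one-carbon and polyamine genes were called in 61.1% of 36 tested, with 12 falls and 10 rises (median -0.28). Tdh, threonine dehydrogenase, whose product feeds one-carbon metabolism in mouse embryonic stem cells, stood at 0, 3.85 and 20.4 TPM in mz_DKO and 3.41, 69.96 and 148.3 TPM in mz_DHet (-3.79 ± 0.52, adjusted p = 9.27e-08). The serine synthesis enzyme Psat1 (-0.93 ± 0.15, adjusted p = 1.37e-06) and spermidine synthase Srm (-1.20 ± 0.18, adjusted p = 8.91e-07) fell. Amt, of the glycine cleavage system, stood at 44.1, 307 and 405 TPM in mz_DKO and 1.41, 112.96 and 197 TPM in mz_DHet, a rise (1.42 ± 0.21, adjusted p = 4.36e-07). The proline synthesis enzymes Aldh18a1 (1.56) and Pycr1 (1.39) rose with asparagine synthetase Asns (2.22).

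Cholesterol and lipid genes had 11 rises and 8 falls of 42 (median 0.11). Fdft1, squalene synthase, stood at 29.7, 53.5 and 116.9 TPM in mz_DKO and 44.5, 137.9 and 273 TPM in mz_DHet, a fall (-1.51 ± 0.21, adjusted p = 1.15e-07). Soat1, which esterifies cholesterol, stood at 39.3, 105.1 and 288 TPM in mz_DKO and 12.1, 30.6 and 64.4 TPM in mz_DHet, a rise (1.59 ± 0.27, adjusted p = 4.48e-06). The regulator Srebf2 (1.41) and fatty acid synthase Fasn (1.24) rose as well. In the sphingolipid list 8 of 24 rose and 5 fell (median 0.29). Ceramide synthases changed in opposite directions. Cers5 stood at 199, 315 and 583 TPM in mz_DKO and 14.1, 59.6 and 155 TPM in mz_DHet, without overlap (2.24 ± 0.25, adjusted p = 8.83e-10). Cers2 stood at 15.2, 43.7 and 82.7 TPM in mz_DKO and 74.7, 152 and 383 TPM in mz_DHet (-1.72 ± 0.22, adjusted p = 1.52e-08). The desaturase Degs2 rose (2.86 ± 0.36, adjusted p = 1.52e-08).

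Mitosis and spindle genes had 16 rises and 3 falls of 47 (median 0.16). Aurkb, the kinase of the chromosomal passenger complex, had 100.4, 142.1 and 149.7 TPM in mz_DKO and 43.5, 75.2 and 115.9 TPM in mz_DHet (0.81 ± 0.17, adjusted p = 0.000142). Its partner Cdca8 had 327, 559 and 626 TPM in mz_DKO and 187, 347 and 447 TPM in mz_DHet (0.54 ± 0.11, adjusted p = 5.89e-05), and the condensin subunit Ncapg rose too (1.18 ± 0.23, adjusted p = 4.61e-05). The kinase that drives mitotic entry, Cdk1, moved the other way, with 151, 358 and 592 TPM in mz_DKO and 380.0, 825 and 1263 TPM in mz_DHet (-1.32 ± 0.18, adjusted p = 5.33e-08). DNA replication genes were called in 25.0% of 52, 7 lower and 6 higher (median -0.10). Rrm2, the ribonucleotide reductase subunit, had 88.9, 226 and 539 TPM in mz_DKO and 358, 694 and 1378 TPM in mz_DHet (-1.58 ± 0.20, adjusted p = 1.07e-08). The polymerase subunit Pold1 fell (-0.99 ± 0.20, adjusted p = 5.88e-05) and the primase Prim1 rose (0.78 ± 0.14, adjusted p = 1.77e-05).

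DNA repair genes were called in 33.3% of 51, 9 lower and 8 higher (median -0.15). Parp1, a sensor of strand breaks, stood at 61.02, 136.4 and 196 TPM in mz_DKO and 108.5, 319 and 435 TPM in mz_DHet (-1.17 ± 0.18, adjusted p = 8.58e-07), and Lig1, a DNA ligase, fell (-1.39 ± 0.23, adjusted p = 2.46e-06). Members known from homologous recombination were called in both directions, Rad54l (1.11 ± 0.20, adjusted p = 9.96e-06, without overlap), Brca2 (1.10), Bard1 (0.89) and Palb2 (0.95) higher and Xrcc3 lower (-1.42 ± 0.33, adjusted p = 0.000642). Brca2 was not called in UMI reads (0.34, adjusted p = 0.407), nor was Palb2 without mz_DKO replicate 1 (adjusted p = 0.0853). Telomere genes had 4 rises, Tcstv1 and Tcstv3 of the 2-cell list among them, and 3 falls of 27 (median 0.09). In the list of p53 targets and apoptosis regulators 11 of 33 rose and 5 fell (median 0.40). Casp6, an executioner caspase, stood at 7.23, 10.03 and 43.2 TPM in mz_DKO and 40.7, 164 and 239 TPM in mz_DHet (-3.44 ± 0.28, adjusted p = 1.84e-13). Perp, a p53 target in cell membranes, stood at 238, 405 and 502 TPM in mz_DKO and 49.1, 142.6 and 299.7 TPM in mz_DHet (1.28 ± 0.23, adjusted p = 1.38e-05). The metabolic regulator Tigar (-0.81 ± 0.14, adjusted p = 4.78e-06) and the BCL2-family gene Bok (-1.31 ± 0.27, adjusted p = 0.000108) fell, while the p53 targets Btg2 (2.07), Pmaip1 (1.75) and Plk2 (1.70) rose. Plk2 was not called without mz_DKO replicate 1 (adjusted p = 0.106).

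Stress response genes had 7 rises and 3 falls of 28 (median 0.19). Chac1, which degrades glutathione and is induced through Atf4, stood at 10.1, 27.9 and 177 TPM in mz_DKO and 0, 0.495 and 101.6 TPM in mz_DHet (3.83 ± 0.61, adjusted p = 1.94e-06). Asns (2.22 ± 0.45, adjusted p = 8.8e-05), Ddit3 (1.52), Trib3 (1.06) and Atf4 itself (0.61) also rose, Trib3 without a call when mz_DKO replicate 4 was left out (adjusted p = 0.0951). Xbp1, a factor of the unfolded protein response, stood at 0, 6.00 and 11.7 TPM in mz_DKO and 6.74, 25.8 and 172 TPM in mz_DHet, a fall (-2.12 ± 0.35, adjusted p = 3.95e-06), and Creld2 fell with it (-0.91 ± 0.18, adjusted p = 8.03e-05).

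The other lists had shares called of 12.5% to 34.8%. Ribosome biogenesis had 4 rises and 3 falls of 47 (median 0.09), with the polymerase I subunit Polr1a down (-0.96 ± 0.28, adjusted p = 0.00661) and the nucleolar GTPase Gnl3 up (0.51 ± 0.12, adjusted p = 0.00105). Chromatin genes had 7 rises and 9 falls of 46 (median 0.0014). The histone deacetylase Hdac1 (-1.11 ± 0.12, adjusted p = 6.21e-10) and the BAF subunit Brd9 (-1.33 ± 0.16, adjusted p = 6.36e-09) fell, and the H3K4 demethylase Kdm5b, with 105.4, 204 and 268 TPM in mz_DKO and 15.7, 51.2 and 81.8 TPM in mz_DHet, rose without overlap (1.73 ± 0.22, adjusted p = 1.51e-08). Autophagy and lysosome genes had 4 rises and 8 falls of 36 (median -0.11), with the protease Ctsd down (-1.04 ± 0.15, adjusted p = 1.53e-07) and the kinase Ulk2 up (1.99 ± 0.32, adjusted p = 1.94e-06). Of 18 other nuclear receptors and coregulators 4 rose, namely Ncoa2 (2.05), Tob1 (1.58), Rarg (0.85) and Rxra (1.004), and 1 fell, Nr1d1 (-0.85). Rxra was not called in UMI reads, nor Nr1d1 without mz_DKO replicate 6 (adjusted p = 0.0608). Of 21 genes known as Nr5a2 targets in adult liver, gonad or gut, 8 were tested and 1 was called, the cyclin Ccne1, with 100.7, 315 and 477 TPM in mz_DKO and 105.6, 710.2 and 1078 TPM in mz_DHet (-1.15 ± 0.18, adjusted p = 7.52e-07).

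Each receptor was also deleted alone, which gives the single losses beside the double loss. These comparisons share the mz_DHet controls, so their values are set side by side. Against mz_DHet, 3075 of 10876 genes (28.3%) were called in mz_NrKO embryos, and in mz_EKO embryos a single gene was (0.00919%), Esrrb itself (-1.56, adjusted p = 0.000277, with 257 genes at an unadjusted p under 0.05). All 12 falls and all 12 rises of mz_DKO were called with the same sign in mz_NrKO and none in mz_EKO in limma. In the trophectoderm list 14 of 17 fell in mz_DKO, 10 in mz_NrKO and 0 in mz_EKO, with medians of -1.76, -1.37 and 0.18. In the 2-cell list 13 of 17 rose in mz_DKO, 11 in mz_NrKO (where 1 fell) and 0 in mz_EKO, with medians of 2.27, 2.10 and -0.02. Genes near 0 in controls passed the filter through embryos without Nr5a2. Genes low in most of those embryos, such as Cdx2, passed through the other groups. The trophectoderm and 2-cell values of these groups are therefore descriptions and give no direction for either list. Cdx2 had TPM of 0, 0.214 and 5.48 in mz_DKO, 0, 2.51 and 243 in mz_NrKO, 50.5, 101.1 and 294 in mz_EKO and 0.620, 87.3 and 294 in mz_DHet embryos. The mz_NrKO value of 243 TPM was that of replicate 1, whose label is in doubt. Without that library 3531 genes (32.6% of 10839) were called in mz_NrKO, with 12 of the 12 falls, 12 of the 12 rises, 13 of 17 tested trophectoderm genes lower and 14 of 17 tested 2-cell genes higher. The spread within groups was also wider in mz_NrKO, with a median standard deviation over genes of 0.81 on the log2 scale on 8 March, against 0.62 in mz_DKO, 0.54 in mz_EKO and 0.52 in mz_DHet. The mz_NrKO value rests on 6 libraries, and replicate 7, which stood apart, is among them.

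The direct contrast of mz_DKO with mz_EKO gave 3284 called genes (30.2%), 1827 higher and 1457 lower. The genes with the smallest adjusted p were all lower in mz_DKO. Crip2 had 5.14, 11.3 and 29.4 TPM in mz_DKO and 289.9, 465 and 1018 TPM in mz_EKO (-5.42 ± 0.48, adjusted p = 2.81e-12), and Igf2r had 6.36, 11.7 and 15.4 TPM in mz_DKO and 21.9, 124.7 and 196 TPM in mz_EKO (-3.19 ± 0.23, adjusted p = 3.18e-15). Slc25a41 (-4.28), the kinase-activating pseudokinase Strada (-2.10), the stathmin Stmn3 (-3.35) and the peroxisome assembly factor Pex16 (-2.26) were the others of the 6.

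The direct contrast of mz_DKO with mz_NrKO, which differ by the loss of Esrrb, gave 16 called genes (0.147%), 4 higher and 12 lower, with 1092 at an unadjusted p under 0.05. Slc25a41 had 0, 0.418 and 9.66 TPM in mz_DKO, 1.87, 9.27 and 31.9 in mz_NrKO, 17.8, 31.8 and 67.03 in mz_EKO and 5.99, 38.97 and 54.1 in mz_DHet embryos. It was lower in mz_DKO than in mz_NrKO (-2.62 ± 0.37, adjusted p = 3.95e-05, and -2.51 with adjusted p = 0.00225 on 8 March alone), while mz_EKO and mz_DHet had similar medians. Aacs, an acetoacetyl-CoA synthetase for lipid synthesis, had 3.03, 15.3 and 18.6 TPM in mz_DKO, 9.56, 36.1 and 81.1 in mz_NrKO, 54.8, 77.98 and 126.4 in mz_EKO and 23.5, 75.3 and 167 in mz_DHet (-1.81 ± 0.30 against mz_NrKO, adjusted p = 0.000687). Strada, which activates the kinase LKB1, had 8.76, 32.1 and 45.4 TPM in mz_DKO, 14.9, 46.9 and 72.6 in mz_NrKO, 60.5, 142.02 and 181 in mz_EKO and 18.8, 126.2 and 164 in mz_DHet (-1.04 ± 0.19, adjusted p = 0.0033). Ggt1, a gamma-glutamyltransferase (-1.94 ± 0.39, adjusted p = 0.012), and D5Ertd577e (-1.39 ± 0.28, adjusted p = 0.012) were lower in mz_DKO, and the glucosylceramide synthase Ugcg was higher (0.94 ± 0.18, adjusted p = 0.0106). Spp1 was higher as well (3.11 ± 0.63, adjusted p = 0.012), and its UMI value was 3.23 (adjusted p = 0.0109).

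These differences from mz_NrKO depended on the libraries used. On 8 March alone Aacs (-1.34, adjusted p = 0.1), Strada (-0.74, adjusted p = 0.0662), Ggt1 (-1.54, adjusted p = 0.168), D5Ertd577e (-1.19, adjusted p = 0.197) and Ugcg (0.59, adjusted p = 0.104) kept their sign and were not called. In UMI reads, with 9 mz_DKO and 5 mz_NrKO libraries, Slc25a41 (-1.38, adjusted p = 0.7), Aacs (-1.30, adjusted p = 0.592), Ggt1 (-1.67, adjusted p = 0.354) and D5Ertd577e (-1.62, adjusted p = 0.344) were not called. Strada (-0.03, adjusted p = 0.997) and Ugcg (0.18, adjusted p = 0.964) were not called either. The count of 16 was 9 without mz_NrKO replicate 1, 10 without mz_DKO replicate 1, 27 without mz_NrKO replicate 3 and 36 without mz_NrKO replicate 6. Without mz_NrKO replicates 1 and 7, the libraries that stood apart, it was 22.

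Whether the double loss departed from the sum of the single losses was tested as an interaction on the log2 scale. It passed for 4 genes (0.0368%), all below the sum, with 709 at an unadjusted p under 0.05. They were Slc25a41 (-2.53 ± 0.47, adjusted p = 0.0137), Aacs (-1.95 ± 0.38, adjusted p = 0.0137), Strada (-1.22 ± 0.24, adjusted p = 0.0137) and Tead4 (-1.74 ± 0.37, adjusted p = 0.0444). Tead4 had medians of 30.7 TPM in mz_DKO, 49.3 in mz_NrKO, 142.6 in mz_EKO and 123.7 in mz_DHet embryos. None of the 4 was called on 8 March alone, and none in UMI reads, where Tead4 had -0.17 (adjusted p = 0.974). Tead4 was also not called without mz_NrKO replicate 1 (-1.65, adjusted p = 0.13), and without mz_NrKO replicates 1 and 7 the count was 8. Of 59 alternatives Tead4 lost its call in 41, most of them with a single library of any group left out. Spp1 (3.63 ± 0.80, adjusted p = 0.0751) and Ugcg (0.99 ± 0.23, adjusted p = 0.122) did not pass, and on 8 March alone Spp1 did (4.67, adjusted p = 0.0139).

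**Figure D4:**
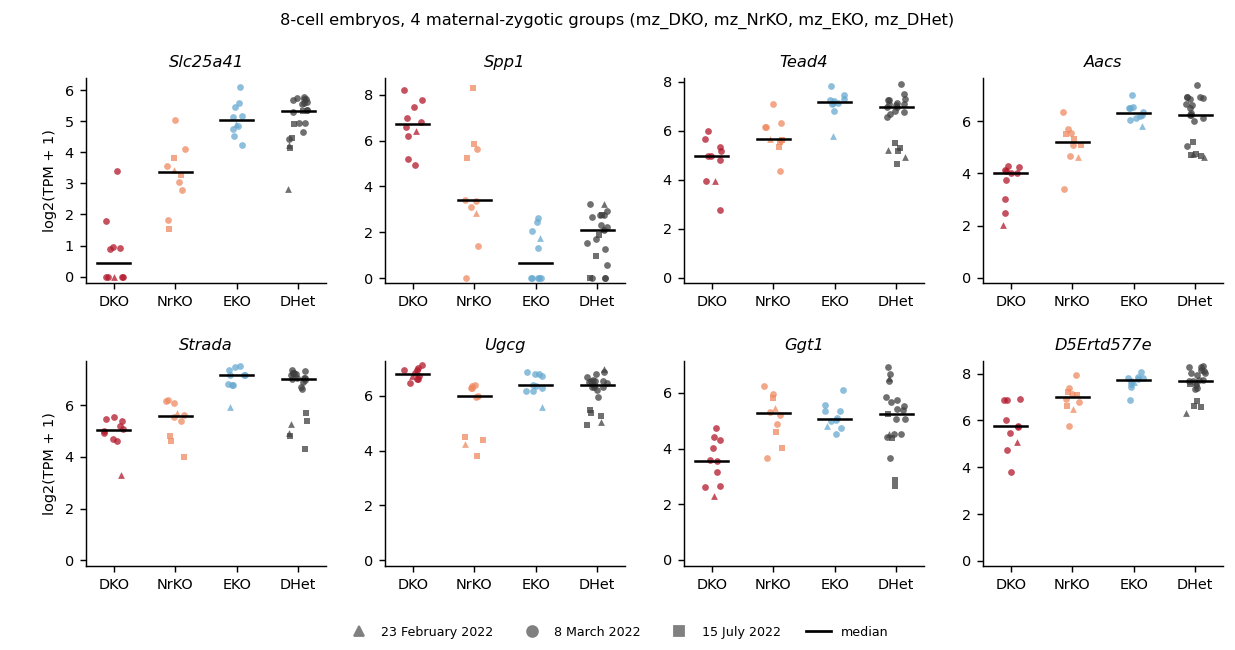
Each panel shows the log2(TPM + 1) of 1 gene in every 8-cell library of mz_DKO, mz_NrKO and mz_EKO (n = 10 each) and mz_DHet (n = 21), with symbols for date and bars at medians. The genes are those with the smallest adjusted p for the interaction and for mz_DKO against mz_NrKO. Slc25a41 is lowest in mz_DKO (median 0.418 TPM), lower in mz_NrKO (median 9.27 TPM) than in mz_EKO and mz_DHet, and the other genes show partial overlap.

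Earlier stages were compared to see when the differences of 8C were present. At the late 2-cell stage (L2C), 6 mz_DKO against 7 mz_DHet embryos gave 20 called genes (0.141%), all lower, and 13 of the 17 also tested at 8C were called there with the same sign. At the 4-cell stage (4C), 10 mz_DKO against 6 mz_DHet embryos gave 336 (2.58%), of which 219 were lower. Of 286 of these tested at 8C, 59.1% were called at 8C with the same sign and 16 genes with the other sign. Conversely, 5.09% of 3322 genes called at 8C and tested at 4C were called at 4C with the same sign. The stages had unequal numbers of embryos and separate filters. A gene not called at an earlier stage is therefore not shown to be unchanged there. The 4C and 8C libraries shared no date, so between them stage and date cannot be told apart. Some L2C libraries shared a date with 4C libraries and others with 8C libraries. Genes low at both stages included Tead4, at 4.97, 33.99 and 50.6 TPM in 4C mz_DKO and 186, 231 and 316 TPM in 4C mz_DHet embryos (-3.46, adjusted p = 1.13e-05). Rflnb, a filamin-interacting protein named after its values were seen, was lower at 4C (-3.56, adjusted p = 4.86e-05) and at 8C (-2.63, adjusted p = 6.68e-10), and S1pr5, a sphingosine-1-phosphate receptor named likewise, was higher at 4C (2.55, adjusted p = 9.2e-06) and at 8C (2.35, adjusted p = 5.98e-07).

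The effect of the double loss differed between 8C and 4C for 1230 of 15542 genes (7.91%), 727 with a more positive and 503 with a more negative difference at 8C. Cdx2 had a 4C median of 0 TPM in mz_DKO and 0 TPM in mz_DHet embryos, and its difference at 8C minus that at 4C was -5.29 (adjusted p = 3.56e-05). Among the 12 falls the stage difference passed for 9, and among the 12 rises for 11. These genes were chosen for their large difference at 8C, which favours a stage difference, so these counts are descriptions. The falls without it were Slc25a41 (0, 1.06 and 8.34 TPM in 4C mz_DKO, 2.30, 29.2 and 44.7 TPM in 4C mz_DHet, stage difference -1.14, adjusted p = 0.283), Steap3 (-2.14, adjusted p = 0.0906) and S1pr2 (-0.47, adjusted p = 0.725). The rise without it was Efna3 (1.67, adjusted p = 0.271). Of the 4C tests on these genes, 2 of 8 falls and 2 of 10 rises tested were called. Obox8, at 59.99, 291 and 481 TPM in 4C mz_DKO and 340.4, 390.2 and 602 TPM in 4C mz_DHet embryos, was abundant in both groups at 4C and low in controls at 8C (stage difference 4.84, adjusted p = 0.000266). Of 31 genes of the 2-cell list tested at 4C, 4 were higher in mz_DKO (median 0.33), and of 13 trophectoderm genes 1 was lower (median 0.05).

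**Figure D5:**
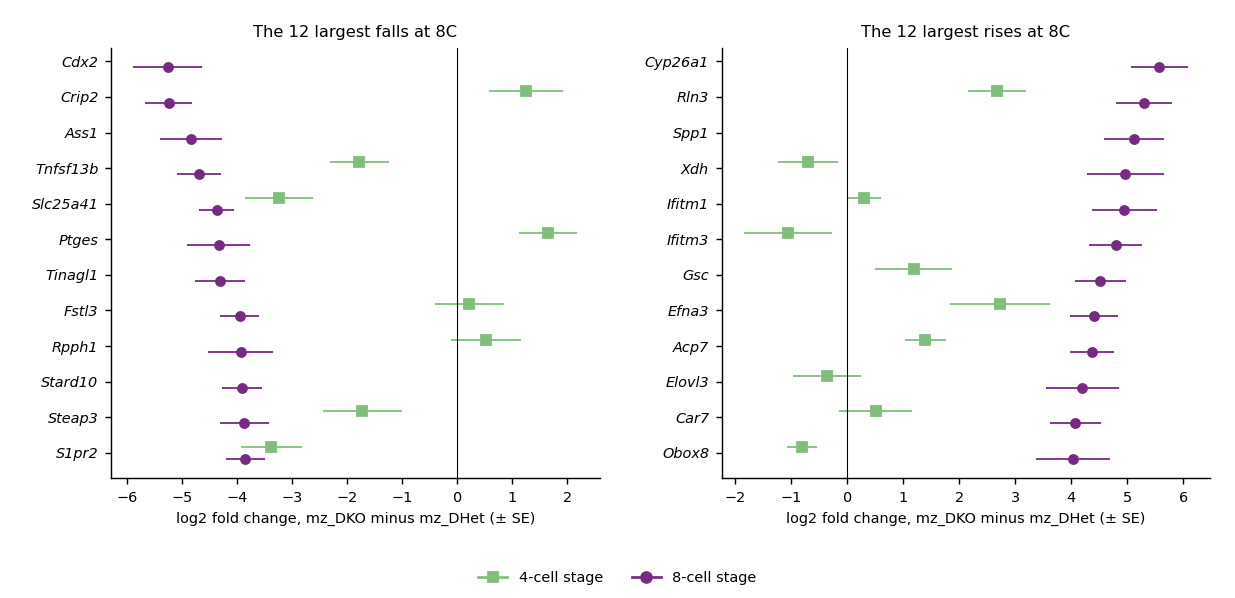
Points are log2 fold changes of mz_DKO minus mz_DHet with bars of 1 SE at the 4-cell stage (green squares) and 8-cell stage (purple circles) for the 12 largest falls (left) and rises (right) at 8C. Genes that missed the filter at 4C have no square. Slc25a41 and S1pr2 are low at both stages, while Xdh and Ifitm3 lie below 0 at 4C and far above it at 8C.

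The same embryos were read a second way, and the authors deposited their own comparison. In UMI reads 3099 of 8960 genes (34.6%) were called, 1757 higher and 1342 lower. Of 2940 genes called in full-length reads and tested in UMI reads, 98.4% had the same sign and 2232 were called in both. In the trophectoderm list 12 of 17 fell and 1 rose in UMI reads, and in the 2-cell list 9 of 13 rose and 1 fell. Here too neither count gives a direction for its list. The authors' deposited table lists 3959 genes that pass their stated rule for mz_DKO at 8C (FDR below 0.1, change of 1.5-fold, and any sample of that stage above 10 TPM), 2344 higher and 1615 lower. The table does not name the group that mz_DKO was set against, and it was taken to be mz_DHet. Of the 3506 genes of the authors' deposited table that pass their rule and were tested here, 2975 (84.9%) were called. All had the sign of the authors' deposited table, and these made up 81.1% of the calls given above. These embryos are the same in all 3 readings, so they add no independent replicates.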

How the data were processed

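Full-length and UMI reads of single embryos were deposited by the authors as TPM per gene, together with a table of their own comparisons as log2 fold changes and false discovery rates (adjusted p-values). Per the submitters' processing notes the tools were cutadapt, STAR, RSEM and DESeq2 with build mm10, whose versions are not given in the sources used here. TPM keeps no depth, so precision comes from the spread between embryos alone. In full-length data 55168 named entries were kept and 65 without a gene name left out.

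The deposited TPM values were taken as log2(TPM + 1) and fitted with limma 3.58.1 (R 4.3.3), with a trend on the mean and with group and date as factors, over all 51 full-length 8C libraries. The fit was tested on simulated data. The 4C and L2C stages were fitted the same way, at 4C and for the joint stage fit with 5 TPM in at least 4 libraries. Alternatives were other pseudocounts, filters and scalings, no date factor, 8 March 2022 alone, a replicate block, UMI reads and each library left out. Permutation tests used 100000 resamples, or were exact with under 10 libraries in a group. Genes were named by rule: the receptors, the 12 largest rises and falls at a group mean TPM of 10 or more, up to 4 members per list with the smallest adjusted p, and 6 genes per further contrast. Other genes named are the remaining called members of a list, or are said to be chosen after their values were seen. Some genes that the rule names are not reported here. The rule for printing promoters was met by none of the 12 largest falls or rises. The comparison, its gene lists and its tests were chosen with earlier results of these data known.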

Additional observations from a re-analysis of the deposited data

Results flagged for a closer look

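Of 118 named genes 17 had 1 mz_DKO library far from the other 9 at 8C, in each case on the high side. The threshold gives about 1 in 20 for independent genes with normally distributed values. TPM of genes in the same embryos need not meet this, so the 17 are not set against chance. Replicate 1, the only mz_DKO embryo of 23 February 2022, was the high one for Fstl3 (19.3 TPM, others up to 9.41), Dppa5a (1712 TPM, others up to 620), Rrm2 (539 TPM), Ndufv2 (523 TPM), Mpc1 (116 TPM) and Soat1 (288 TPM). Replicate 5 was high for Tinagl1 (3.03 TPM), S1pr2 (0.834 TPM), Fdft1 (116.9 TPM), Usp17ld (71.5 TPM) and Tdpoz5 (241 TPM). Replicate 3 was high for Slc25a41 (9.66 TPM, others up to 2.43), Cyp26a1 (283 TPM) and Stmn3 (65.4 TPM). The others were Chac1 in replicate 4 (177 TPM), Idh2 in replicate 10 (119 TPM) and Degs2 in replicate 7 (33.1 TPM).

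The double loss departed from the sum of the single losses, on the log2 scale, for Slc25a41 (-2.53), Tead4 (-1.74), Aacs (-1.95) and Strada (-1.22) by limma's interaction test as reported. Tead4 lost this call in 41 of 59 alternatives. Slc25a41, Aacs and Strada each lost it in 4, namely without the date factor, on 8 March alone, with the replicate block and in UMI reads.

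The difference between mz_DKO and mz_DHet was more negative at 8C than at 4C, on the log2 scale, for Cdx2 (-5.29), Crip2 (-6.5), Ass1 (-5.09), Tnfsf13b (-2.91), Ptges (-5.99), Tinagl1 (-4.31), Fstl3 (-4.18), Rpph1 (-4.46) and Stard10 (-3.8). It was more positive at 8C for Cyp26a1 (5.57), Rln3 (2.62), Spp1 (5.14), Xdh (5.67), Ifitm1 (4.65), Ifitm3 (5.85), Gsc (3.33), Acp7 (2.98), Elovl3 (4.57), Car7 (3.57) and Obox8 (4.84). Each of these passed limma's test of the difference between stages. They were chosen for their large difference at 8C, which favours passing that test.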

How the results depend on the processing

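The count of 3669 called genes stayed within 1.5 times under every alternative run, from 2980 with the replicate block to 4428 with a filter at 1 TPM, and from 3373 to 3851 with 1 library left out (1897 to 2170 higher and 1441 to 1681 lower). The share higher among calls was 56.1% as reported, 64.2% without the date factor and 64.5% without a filter. Of the called genes that the naming rule gives and that were followed, 115 kept direction and call in every alternative that tested them. Sdha and Rxra lost the call. In this count and the next, a gene that missed the filter of an alternative was left out there, and Degs2 was tested in 33 of 41. Of all 285 called members of the gene lists, 185 kept direction and call. In at least 1 alternative 99 lost the call (56 with a single library left out), and 4 were reversed in UMI reads, Tet2 among them. Of the other genes in the text, Acvr2b, Amotl2, Dppa2, Etv5, Fgfr3, Hand1, Hk1, Nr1d1, Pou5f1, Srebf2 and Tet2 lost it without the date factor, Acvr2b, Fgf4, Hand1, Nanog, Palb2, Plk2, Spic and Trib3 without a filter, Acvr2b, Etv5, Ezr, Fgf4 and Trib3 with the replicate block, Palb2 and Plk2 on 8 March alone, and Brca2, Dppa2, Etv5 and Nr1d1 in UMI reads. A library named beside a lost call is the one whose removal gave the highest adjusted p. The 3075 genes of mz_NrKO became 3698 without replicates 1 and 7. The count against mz_EKO was 3033 to 3256 with 1 library left out. The 16 genes against mz_NrKO became 7 without the date factor, 4 on 8 March alone, 2 with the replicate block, 3 in UMI reads and 9 to 36 with 1 library left out. The 4 genes of the interaction became 0 without the date factor (492 at an unadjusted p under 0.05), 2 on 8 March alone, 1 with the replicate block, 0 in UMI reads (536 unadjusted), 8 without mz_NrKO replicates 1 and 7, and 3 to 6 with 1 library left out. For Ugcg the interaction turned to -0.24 in UMI reads (adjusted p = 0.949). The cause of these changes was not tested. Alternatives with libraries left out and UMI reads in these further contrasts were chosen after seeing the data. Same-numbered libraries correlated at -0.104 to 0.467 and only number 1 did so best with its own, so the numbers were not taken to pair embryos.

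TPM holds no depth, so a gene listed at 0 cannot be told from one missed. A single mz_DKO embryo came from another date, and mothers are not given, so date and litter effects rest on few libraries.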
